A study of Mus musculus with 12 samples.

Results

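Tumour-infiltrating CD8 T lymphocytes (TIL) that carry the inhibitory receptors PD-1 and Tim-3 were compared with naive CD8 T lymphocytes from spleen, gene by gene. The comparison took 9 of the series' 12 arrays: the 4 arrays whose titles give PD-1+ Tim-3+ TIL and the 5 whose titles give naive splenocytes. It covers 18193 genes. Each gene took the value of its brightest probe set among those that name that gene alone. Values are log2 intensities, so a difference of 1 is a doubling, and all group values have n = 4 Tim-3+ and n = 5 naive arrays.

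Both groups are labelled C57bl/c mice of 6 to 8 weeks, with no altered allele named. The TIL came from mice given B16F10-GP cells, a mouse skin melanoma, under the skin of the flank, and were sorted between day 17 and day 19 as PD-1+ Tim-3+ 2B4+ CD8 cells after enzyme digestion of the tumour and a density gradient. The third group, used here for levels side by side, is PD-1+ Tim-3- 2B4- TIL from such tumours (n = 3). The naive cells are CD8 T lymphocytes from the spleen of naive mice, and how they were purified is not given in the sources used here. Tissue, tumour, digestion and cell state therefore differ together between the groups and cannot be told apart. The labels do not say whether arrays came from separate or pooled mice, so p-values measure only the spread between these samples, which may be technical.

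A naive CD8 T cell circulates between blood and lymph nodes, is held at rest by factors such as LEF1 and KLF2, and depends on interleukin 7. Antigen and costimulation make it divide, leave the lymph node and arm itself with granzymes, perforin and interferon gamma. Under lasting antigen, as in a tumour, such cells take on PD-1, Tim-3 and other inhibitory receptors together with the factor TOX, a state called exhaustion.

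Arrays of 1 group resembled each other far more than arrays of the other group. Log2 levels were correlated across all probe sets but the controls, which are not independent replicates. The r lay between 0.9884 and 0.9949 among Tim-3+ arrays, between 0.9874 and 0.9941 among naive arrays, and between 0.9225 and 0.9316 across the groups. The median intensity lay between 58.8 and 63.0 on all 12 arrays. Replicates 1 and 2 of each group, with Tim-3- replicate 1, deviated together from their group means (array set A), as did the others (array set B). The sets were taken from the first principal component of these deviations (35.8% of their variance), and no label names a batch. Values within a set are given where they move a called change by over 1.5 times or end the call. A reading of RNA quality, the log2 difference between 3' and 5' probes for 4 controls, was -0.03 ± 0.21 (SD) in Tim-3+ and 0.10 ± 0.17 in naive arrays. It parted the array sets, at -0.22 to -0.0015 on the 5 arrays of set A and 0.08 to 0.26 on the 7 of set B, and its part in values that differ between the sets was not tested.

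Between Tim-3+ TIL and naive cells 7554 of the 18193 genes, 41.5%, passed the threshold of adjusted p below 0.05 by limma. Of all genes 20.1% (3661) were higher and 21.4% (3893) lower in Tim-3+ TIL. The counts of the gene lists below are to be read against these shares. Rises were larger than falls at the far end. A total of 1501 genes rose and 1097 fell at least 2-fold, 360 rose and 110 fell at least 8-fold, and 88 rose and 19 fell at least 32-fold. The median change was -0.07 over all genes, 0.83 among called rises and -0.68 among called falls. The 4 Tim-3+ arrays lay entirely above or entirely below the 5 naive arrays for 6785 genes, 37.3%. Many large changes meet the floor of the array. Of the called rises 949 start from a naive mean below log2 5.71, percentile 40 of the genes, and of the called falls 1130 end at a Tim-3+ mean below it. Such levels may be background, and the change is then at best a lower bound.

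**Figure D1:**
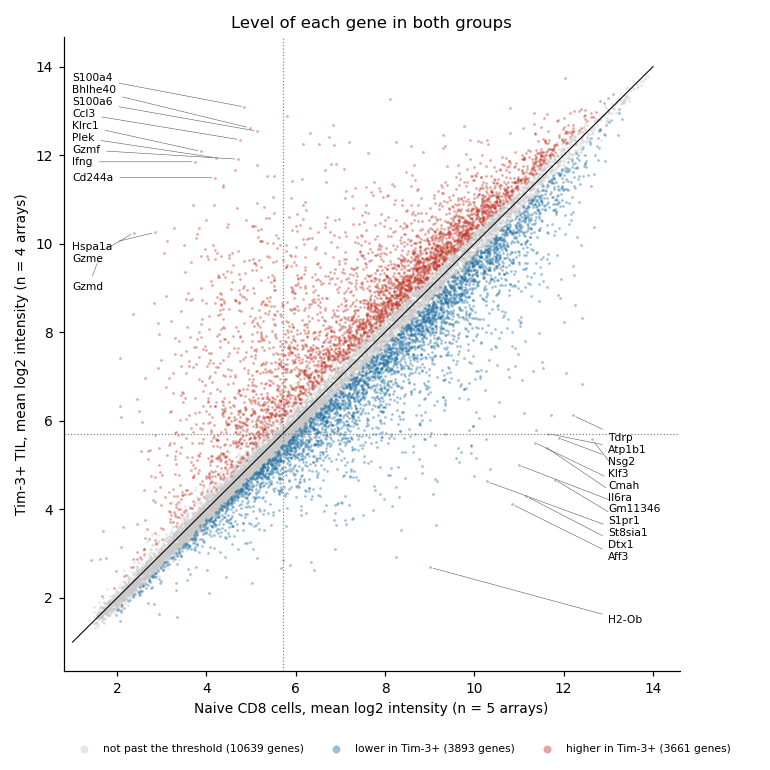
Mean log2 intensity of each of the 18193 genes in naive cells (x axis, n = 5) and Tim-3+ TIL (y axis, n = 4), coloured by the limma call, with the line of equal level, dotted lines at log2 5.71 and names at the 12 largest rises and 12 largest falls whose arrays do not overlap. The 3661 higher and 3893 lower genes spread to both sides of the line, and all 12 named rises start left of the vertical dotted line.

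The genes of the sort markers came first. Pdcd1, which encodes PD-1, read 11.74, 11.99, 11.75 and 11.59 on the Tim-3+ arrays against 5.003, 5.07, 5.68, 4.90 and 5.04 on the naive arrays. Havcr2, which encodes Tim-3, read 11.57, 11.87, 11.58 and 11.61 against 4.54, 4.69, 4.72, 4.91 and 4.31. Cd244a, which encodes 2B4, read 11.86, 12.05, 11.02 and 11.04 against 4.16, 4.33, 3.90, 4.62 and 3.91. For all 3 genes every Tim-3+ array was far above every naive array, and the naive levels lay below 5.71. The log2 differences were 6.63 ± 0.15 for Pdcd1, 7.03 ± 0.17 for Havcr2 and 7.31 ± 0.29 for Cd244a (limma adjusted p between 7.52e-13 and 1.06e-10). Since the TIL were sorted on these proteins, their rise checks the labels and is no finding. Cd8a read 12.88, 12.95, 12.80 and 12.77 in Tim-3+ and 12.83, 12.83, 12.76, 12.84 and 12.82 in naive arrays, which overlap (limma adjusted p = 0.763). Cd8b1, the CD8 beta chain, was lower, at 11.76 ± 0.14 against 12.46 ± 0.05, a change of -0.70 ± 0.09 (limma adjusted p = 2.11e-05).

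Markers of T cell identity stayed at high levels in both groups. Of 11 measured genes 0 rose, 5 fell and 6 did not pass, with a median change of -0.15. Thy1, a T cell surface protein, was at 12.90 ± 0.02 in Tim-3+ and 12.90 ± 0.03 in naive cells. Cd247, the zeta chain that carries the signal of the T cell receptor, had the second largest fall of the list after Cd8b1, from 11.13 ± 0.04 to 10.53 ± 0.11 (-0.60 ± 0.09, limma adjusted p = 7.88e-05).

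The 12 largest rises mix secreted effectors, surface receptors and cytoskeletal or stress proteins. They were the calcium-binding S100a4 (8.24) and S100a6 (7.40), the NKG2A receptor gene Klrc1 (8.21), Ifng (8.10), the granzymes Gzmd (8.04), Gzme (7.87) and Gzmf (7.20), the protein kinase C substrate Plek (7.73), the transcription factor Bhlhe40 (7.65), the chemokine Ccl3 (7.59), the heat shock protein Hspa1a (7.40) and Cd244a. S100a4 read 13.06, 13.18, 13.06 and 13.07 in Tim-3+ against 4.93, 4.73, 5.70, 4.26 and 4.63 in naive arrays. Plek read 11.9999, 11.95, 11.86 and 11.96 against 4.49, 4.11, 4.06, 4.25 and 4.16. Neither gene's groups came near each other, and Plek had the smaller spread of the pair. The S100a4 and Plek changes were 8.24 ± 0.21 and 7.73 ± 0.10 (limma adjusted p = 2.38e-12 and 7.81e-15), and both genes were also high in Tim-3- TIL, at 12.18 ± 0.08 and 11.34 ± 0.15.

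The 12 largest falls were the sphingosine 1-phosphate receptor S1pr1 (-7.14), the transcription factor Klf3 (-7.06), the Notch pathway gene Dtx1 (-6.87), the nuclear protein gene Aff3 (-6.72), H2-Ob, a chain of a non-classical MHC class II molecule (-6.32), the vesicle protein Nsg2 (-6.28), the interleukin 6 receptor Il6ra (-6.22), Tdrp (-6.09), the predicted gene Gm11346 (-5.997), the sodium pump subunit Atp1b1 (-5.93), Cmah, whose enzyme makes the sialic acid Neu5Gc in mice (-5.84), and St8sia1, whose enzyme makes the ganglioside GD3 (-5.65). Dtx1 read 4.22, 4.58, 3.85 and 4.52 in Tim-3+ against 10.91, 10.90, 11.34, 11.35 and 11.31 in naive arrays. Cmah read 4.96, 5.43, 5.71 and 5.94 against 11.34, 11.42, 11.16, 11.40 and 11.42. The groups lay far apart for both, and both were at or near background in Tim-3+ TIL. In Tim-3- TIL these genes parted: Dtx1 was at 6.11 ± 0.47, while Cmah was at 9.22 ± 0.24 and Aff3 at 10.33 ± 0.37 against 10.84 ± 0.13 in naive cells.

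**Figure D2:**
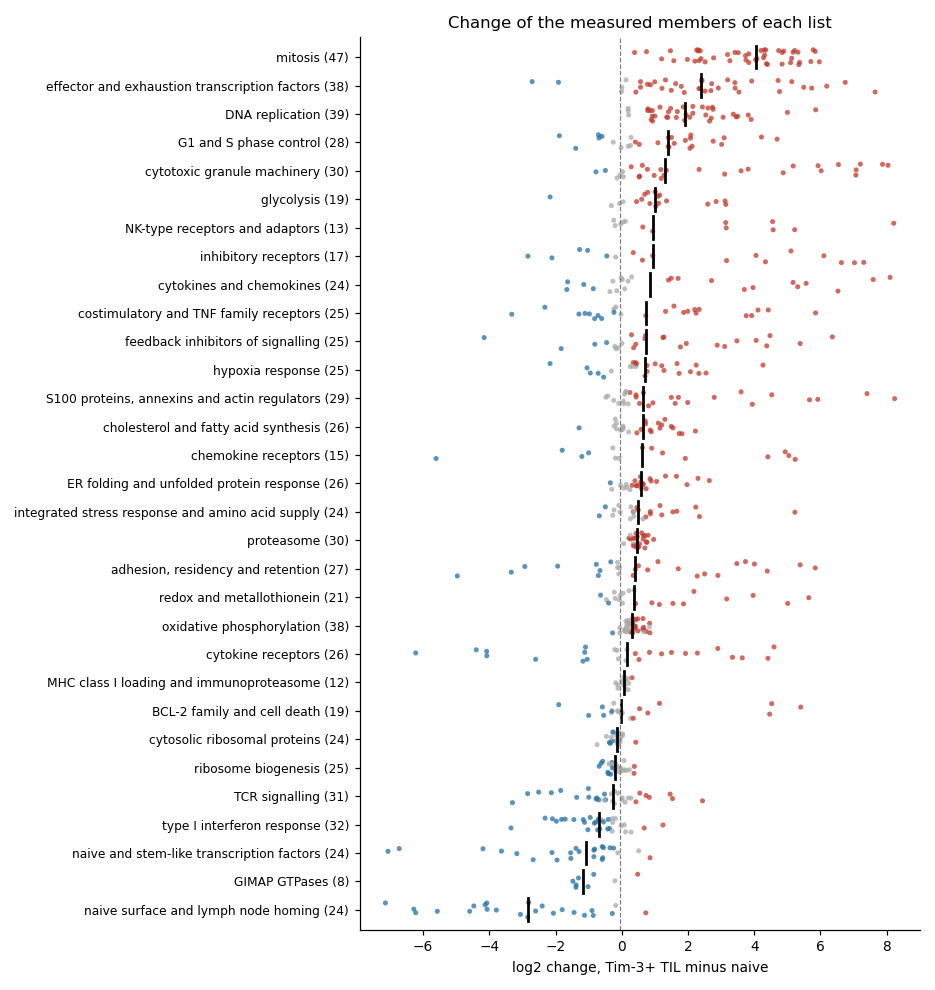
Log2 change (Tim-3+ TIL minus naive) of each measured member of 31 gene lists, with the number of members in brackets. Points are genes, red where called higher, blue where called lower and grey where not past the threshold; black bars are list medians and the dashed line is the median of all genes, -0.07. The mitosis list sits farthest right, with a median of 4.04, and the list of naive surface and homing genes farthest left, with -2.83.

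Transcription factors that hold T cells in a naive or stem-like state were lower almost throughout. Of 24 measured, 21 fell, 1 rose and 2 did not pass, with a median of -1.07 where the median of all genes was -0.07. Klf3 read 5.24, 5.42, 6.10 and 5.56 in Tim-3+ against 12.60, 12.57, 12.63, 12.68 and 12.72 in naive arrays, with no overlap (-7.06 ± 0.21, limma adjusted p = 7.11e-12). Klf2, which drives expression of S1pr1 and of lymph node homing receptors, read 7.21, 7.46, 7.32 and 7.33 against 11.59, 11.54, 11.61, 11.39 and 11.50, again with no overlap (-4.19 ± 0.16, limma adjusted p = 6.02e-11). Lef1, a partner of beta-catenin that keeps naive T cells quiescent, fell from 12.25 ± 0.07 to 8.62 ± 0.37, the repressor Bach2 from 10.85 ± 0.07 to 7.68 ± 0.29, and Id3 from 8.81 ± 0.15 to 6.14 ± 0.12. The chromatin organiser Satb1 changed by -2.11 ± 0.24, or by -3.18 as the mean of its probe sets and -4.08 with its most variable probe set. Gata3 was the member that rose (0.85 ± 0.14; 0.54 within array set A). Between the TIL groups 13.5% of all genes differed, and of this list 13 members were lower in the Tim-3+ cells and 0 higher.

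The receptors and surface proteins of naive cells, many of which steer circulation, were lower by a median of -2.83. Of 24 measured, 22 fell, 19 of them at least 2-fold, 1 rose and 1 did not pass. S1pr1, through which lymphocytes leave lymph nodes and tissue, read 4.16, 3.98, 5.47 and 5.06 in Tim-3+ against 11.71, 11.67, 11.82, 12.02 and 11.81 in naive arrays. Il7r, the receptor for interleukin 7, read 6.81, 7.52, 9.47 and 9.54 against 12.46, 12.54, 12.25, 12.43 and 12.37. Every Tim-3+ array was below every naive array for both genes, but Il7r on Tim-3+ replicates 1 and 2 was lower than on replicates 3 and 4. The changes were -7.14 ± 0.36 (limma adjusted p = 1.06e-09) and -4.08 ± 0.45 (limma adjusted p = 3.93e-06), with Il7r at -5.34 within array set A and -2.85 within set B. Ccr7, which guides cells into lymph nodes, changed by -1.80 ± 0.22, from 12.03 ± 0.12 to 10.23 ± 0.63, and Tim-3- TIL had it at 12.46 ± 0.19.

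Further members lost most of their signal. Nsg2 went from 11.89 ± 0.20 to 5.61 ± 0.40, Dapl1, an early marker of naive cells, from 12.41 ± 0.16 to 6.84 ± 0.55, and the adhesion receptor Pecam1 from 9.77 ± 0.18 to 6.71 ± 0.20. Slamf6, a self-ligand receptor of naive and stem-like cells, went from 10.55 ± 0.09 to 6.42 ± 0.42 and was at 10.37 ± 0.22 in Tim-3- TIL. The costimulatory receptor Cd28 was the member that rose (0.72 ± 0.09). Cd27 did not pass, at 12.10 ± 0.15 against 12.28 ± 0.06 (limma adjusted p = 0.123). It passed as a fall after another quantile normalization (-0.28) and with arrays centred on their medians (-0.25). Trend and robust moderation (-0.18) and leaving out Tim-3+ replicate 4 (-0.25) also made it pass. In the bulk RNA of a sort, fewer cells with a transcript and less of it per cell cannot be told apart, here or in any result below.

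Both Ccr9 and Itgae, of the lists of chemokine receptors and of adhesion genes, fell steeply. Ccr9, the receptor for the chemokine CCL25 of the small intestine and thymus, read 5.89, 6.003, 5.54 and 5.69 in Tim-3+ against 11.38, 11.23, 11.44, 11.52 and 11.39 in naive arrays. Itgae, the CD103 integrin chain that binds E-cadherin of epithelia and is known from resident T cells, read 6.05, 6.17, 8.13 and 8.01 against 11.86, 11.92, 12.15, 12.16 and 12.18. No Tim-3+ array reached a naive level, and Tim-3+ replicates 1 and 2 were again the lowest for Itgae. The changes were -5.61 ± 0.14 and -4.97 ± 0.38 (limma adjusted p = 2.38e-12 and 9.52e-08). In Tim-3- TIL Ccr9 was at 5.64 ± 0.37, and Itgae stood between the other groups at 9.64 ± 0.33 (Tim-3+ minus Tim-3- -2.55 ± 0.43, limma adjusted p = 0.00116). Itgb7, which encodes the integrin partner of Itgae and also of Itga4, went from 12.23 ± 0.05 to 9.30 ± 0.18, while Itga4 did not pass (-0.13 ± 0.10, limma adjusted p = 0.361).

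**Figure D3:**
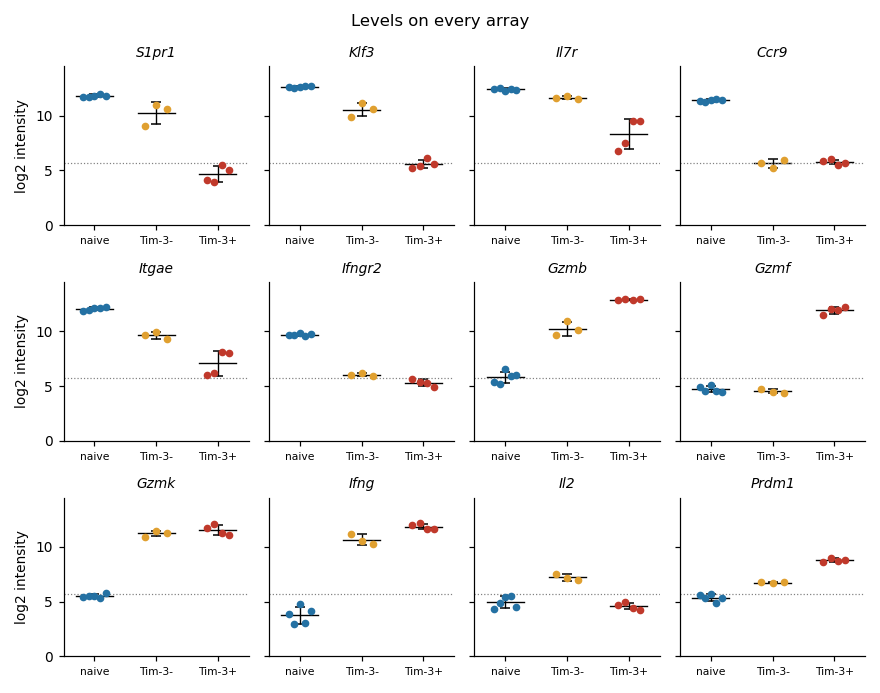
Log2 intensity of 12 genes on every array of naive cells (n = 5), Tim-3- TIL (n = 3) and Tim-3+ TIL (n = 4); points are arrays, horizontal lines are group means, bars are SD and the dotted line is log2 5.71. Ccr9 and Ifngr2 are low in both TIL groups, S1pr1 and Klf3 reach background levels in Tim-3+ TIL alone, Gzmf is above the dotted line in Tim-3+ TIL alone, and Il2 is above it in Tim-3- TIL alone.

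Inhibitory receptors rose as a majority, but not all. Of 17 measured, 11 rose, 5 fell and 1 did not pass. The sort chose 3 of the risers. Ctla4, which competes with CD28 for its ligands, read 12.18, 12.51, 12.19 and 12.18 in Tim-3+ against 5.94, 5.84, 6.26, 6.23 and 6.55 in naive arrays, and Lag3, which binds MHC class II, read 10.14, 10.28, 10.44 and 10.48 against 5.40, 4.98, 5.23, 5.27 and 5.24. All Tim-3+ arrays were above all naive arrays, by 6.10 ± 0.14 for Ctla4 and 5.11 ± 0.11 for Lag3 (limma adjusted p = 1.07e-12 and 7.52e-13). Entpd1, the ectoenzyme CD39, rose from 5.57 ± 0.33 to 9.91 ± 0.25 and was at 6.42 ± 0.34 in Tim-3- TIL (Tim-3+ minus Tim-3- 3.49 ± 0.21, limma adjusted p = 1.04e-07). Cd160 rose by 0.93 ± 0.21, with 0.57 within array set B and 0.50 as the mean of its 4 probe sets, 1 of which fell. On the other side, Btla, the receptor for HVEM, fell from 10.85 ± 0.12 to 8.01 ± 0.24 (-2.83 ± 0.13, limma adjusted p = 3.55e-10), and the collagen receptor Lair1 from 7.11 ± 0.40 to 5.004 ± 0.46 (-2.11 ± 0.30). The member that did not pass was Cd96, at 11.04 ± 0.08 against 11.22 ± 0.12 (limma adjusted p = 0.176).

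Transcription factors of effector and exhausted cells rose with few exceptions. Of 38 measured, 33 rose, 2 fell and 3 did not pass, with a median of 2.39. Bhlhe40 read 12.75, 12.76, 12.46 and 12.50 in Tim-3+ against 4.79, 4.30, 5.65, 4.82 and 5.28 in naive arrays. Zeb2, a repressor known from terminal effector cells, read 9.44, 9.52, 10.003 and 10.22 against 2.92, 2.73, 3.26, 3.41 and 2.92. The orphan nuclear receptor gene Nr4a2, induced by T cell receptor signals, read 12.54, 12.61, 12.44 and 12.42 against 4.72, 5.59, 7.55, 7.11 and 6.61. None of these overlapped, though naive Nr4a2 levels ranged widely. The changes were 7.65 ± 0.21, 6.75 ± 0.17 (4.22 as the mean of its probe sets) and 6.19 ± 0.43 (limma adjusted p = 4.19e-12, 2.60e-12 and 3.27e-08). Litaf, counted in this list, rose from 6.52 ± 0.27 to 12.25 ± 0.04, and whether its protein acts as a transcription factor was not tested.

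The factors most tied to exhaustion and effector fate were higher to differing degrees. Tox, the factor that sets up exhaustion, read 11.25, 11.08, 10.15 and 10.29 in Tim-3+ against 8.98, 8.90, 8.84, 8.66 and 8.66 in naive arrays, with no overlap (1.89 ± 0.25, limma adjusted p = 2.65e-05). Prdm1, which encodes Blimp-1, rose from 5.36 ± 0.32 to 8.79 ± 0.16, Irf8 from 5.92 ± 0.24 to 11.42 ± 0.47, Ikzf2, which encodes Helios, from 7.28 ± 0.43 to 10.82 ± 0.26, and Tbx21, which encodes T-bet, from 7.11 ± 0.63 to 11.03 ± 0.05. Smaller rises were those of Id2 (2.37 ± 0.10), Irf4 (2.33 ± 0.23), Eomes (1.21 ± 0.11) and Batf (0.995 ± 0.13). Tox2 rose by 3.20 ± 0.14 (1.97 as the mean of its probe sets) but was lower than in Tim-3- TIL (-1.53 ± 0.16, limma adjusted p = 2.51e-05).

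Egr2 and Egr3, targets of T cell receptor and NFAT signals, were the 2 factors that fell. Egr2 read 7.10, 7.62, 8.59 and 8.33 in Tim-3+ against 9.24, 9.55, 10.04, 10.05 and 10.22 in naive arrays, and Egr3 read 6.43, 6.87, 5.71 and 5.80 against 8.38, 8.49, 9.13, 9.45 and 9.08. The groups did not overlap in either gene, and the changes were -1.91 ± 0.28 and -2.70 ± 0.29 (limma adjusted p = 6.32e-05 and 3.17e-06), with Egr3 at -1.45 as the mean of its probe sets and -1.79 within array set A. All 3 Nr4a genes went the other way: Nr4a1 rose by 2.42 ± 0.27 and Nr4a3 by 3.41 ± 0.19. Egr1 rose by 0.56 ± 0.09.

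The machinery of killing was strongly induced. Of 30 genes, 24 rose, 2 fell and 4 did not pass, with a median of 1.31. Gzmb, the main granzyme of killer cells, read 12.86, 12.93, 12.83 and 12.90 in Tim-3+ against 5.41, 5.18, 6.53, 5.93 and 5.97 in naive arrays. Gzmf, of the granzyme cluster beside Gzmb, read 11.48, 12.03, 11.92 and 12.21 against 4.88, 4.54, 5.11, 4.56 and 4.45. Gzmk, a granzyme of another cluster, read 11.69, 12.05, 11.26 and 11.11 against 5.46, 5.48, 5.48, 5.31 and 5.81. All Tim-3+ arrays were above all naive arrays for each. The changes were 7.08 ± 0.26, 7.20 ± 0.17 and 6.02 ± 0.18 (limma adjusted p = 5.86e-11, 1.07e-12 and 7.17e-12).

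The granzyme genes lie in 3 places of the mouse genome, and genes of the same place could differ. In the RefSeq annotation of GRCm38.p6 the order on chromosome 14 is Gzme, Gzmd, Gzmg, Gzmn, Gzmf, Gzmc and Gzmb. Of these 7 genes all but Gzmn rose, by 7.87, 8.04, 2.33, 7.20, 6.54 and 7.08 in that order, and Gzmn was at 2.69 ± 0.05 against 2.64 ± 0.29. In Tim-3- TIL Gzmd, Gzme, Gzmf and Gzmg stayed below 5.71, at 2.48 ± 0.64, 3.79 ± 0.62, 4.54 ± 0.20 and 4.08 ± 0.06. Their neighbour Gzmb was high there too, at 10.21 ± 0.65, and Gzmc was just above 5.71, at 5.95 ± 0.43. On chromosome 13 Gzma and Gzmk rose by 4.87 and 6.02, and both were also high in Tim-3- TIL (8.71 ± 0.81 and 11.22 ± 0.27). Gzmm, on chromosome 10, did not pass, at 5.78 ± 0.06 against 5.92 ± 0.28 (limma adjusted p = 0.416), but did with the replicate block (-0.26) and without naive replicate 5 (-0.26). Gzmc to Gzmg are near copies of each other, and how far their probe sets share signal was not tested.

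Other killing genes rose beside the granzymes. Fasl, the ligand of the death receptor FAS, read 10.17, 10.60, 10.34 and 10.28 in Tim-3+ against 2.63, 3.27, 3.99, 3.52 and 2.98 in naive arrays, with no overlap (7.07 ± 0.21, limma adjusted p = 7.38e-12). Perforin gave no single answer. The brighter Prf1 probe set was lower in Tim-3+ TIL, at 9.40 ± 0.31 against 9.89 ± 0.24 (-0.50 ± 0.16, limma adjusted p = 0.0226), a call that leaving out naive replicate 1 or 2, or replicate 3 or 4 of Tim-3+, took away (adjusted p between 0.055 and 0.0838). The other probe set rose from 8.15 to 10.89, by 2.74. Lamp1, a membrane protein of lysosomes and lytic granules, fell from 11.21 ± 0.13 to 10.43 ± 0.07 (-0.78 ± 0.09).

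Secreted products were led by interferon gamma and chemokines. Of 24 genes 12 rose, 4 fell and 8 did not pass, and 8 lay below 5.71 in both groups. Ifng read 11.96, 12.14, 11.66 and 11.64 in Tim-3+ against 3.86, 2.92, 4.83, 3.03 and 4.12 in naive arrays. Ccl3, a chemokine that attracts myeloid and T cells, read 12.85, 13.0004, 11.64 and 11.90 against 4.52, 4.02, 5.30, 4.76 and 5.20. Csf1, the growth factor of macrophages, read 10.87, 10.92, 11.16 and 11.31 against 5.78, 5.06, 5.47, 5.86 and 5.34. No group overlapped in any of these, and Ccl3 was higher on Tim-3+ replicates 1 and 2 than on replicates 3 and 4. The changes were 8.10 ± 0.33, 7.59 ± 0.41 and 5.57 ± 0.18 (limma adjusted p = 1.29e-10, 2.56e-09 and 1.63e-11). Ccl5 rose from 8.10 ± 0.38 to 13.27 ± 0.07, Ccl4 from 6.15 ± 0.41 to 10.11 ± 1.16, Xcl1, which attracts cross-presenting dendritic cells, from 7.11 ± 1.22 to 9.82 ± 0.32, and Penk, which encodes the precursor of enkephalins, from 3.83 ± 0.48 to 10.36 ± 0.41.

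Several classic T cell cytokines did not follow. Tnf read 6.42, 6.78, 7.12 and 6.96 in Tim-3+ against 6.16, 5.89, 6.92, 6.78 and 6.86 in naive arrays, which overlap (0.30 ± 0.21, limma adjusted p = 0.291). It passed within array set A (0.58) and with the array sets as a block (0.35). Il2, the growth factor of T cells, was below 5.71 in both groups, at 4.59 ± 0.31 and 4.95 ± 0.54, and at 7.21 ± 0.29 in Tim-3- TIL. Oncostatin M, encoded by Osm, fell from 7.96 ± 0.11 to 6.30 ± 0.28, and Il16 from 11.19 ± 0.07 to 9.56 ± 0.27 (-2.59 with its most variable probe set).

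Chemokine receptors split. Of 15, 8 rose, 4 fell and 3 did not pass. Receptors known from effector and tissue T cells rose: Cx3cr1, the fractalkine receptor, from 4.46 ± 0.35 to 9.39 ± 0.06, Ccr8 from 3.20 ± 0.25 to 8.25 ± 0.28, the chemerin-binding Ccrl2 from 5.34 ± 0.37 to 10.58 ± 0.26, and Cxcr6, a receptor of resident and tumour T cells, from 9.59 ± 0.30 to 11.51 ± 0.10. Tim-3- TIL had Cxcr6 at 9.27 ± 0.51 (Tim-3+ minus Tim-3- 2.24 ± 0.21, limma adjusted p = 8.55e-06). Cxcr3, which follows interferon-induced chemokines, rose by 0.90 ± 0.17, and Tim-3- TIL had it at 11.10 ± 0.37 (Tim-3+ minus Tim-3- -2.56 ± 0.20, limma adjusted p = 1.17e-06). Cxcr4 read 11.19 ± 0.27 against 11.46 ± 0.21 and did not pass (limma adjusted p = 0.134), but it did within array set B (-0.52) and without Tim-3+ replicate 2 (-0.37).

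Adhesion and residency genes went both ways. Of 27, 15 rose, 8 fell and 4 did not pass. Cd44, the hyaluronan receptor of activated T cells, read 10.55, 10.62, 10.64 and 10.44 in Tim-3+ against 6.23, 6.23, 6.49, 5.76 and 6.14 in naive arrays, with no overlap (4.39 ± 0.14, limma adjusted p = 1.16e-11). Rgs1 and Rgs16, which dampen signals of chemokine receptors, rose by 5.39 ± 0.13 and 5.84 ± 0.16, whereas Rgs10 fell from 11.14 ± 0.21 to 7.80 ± 0.27. Cd69, which holds cells in tissue by removing S1PR1, was slightly lower (-0.33 ± 0.12, limma adjusted p = 0.0455). It no longer passed when any 1 naive array, replicate 1 or 2 of Tim-3+ or replicate 3 of Tim-3- was left out (adjusted p between 0.055 and 0.154) nor with the most variable probe set, array weights or array set B alone (-0.10); within set A the change was -0.57. Itga4 was the brightest member that did not pass, at 11.88 ± 0.12 against 12.01 ± 0.10.

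Costimulatory and TNF family genes leaned higher. Of 25 genes 13 rose, 9 fell and 3 did not pass. Tnfrsf9, which encodes 4-1BB, read 11.96, 11.91, 12.13 and 12.16 in Tim-3+ against 6.75, 6.86, 8.31, 8.24 and 7.94 in naive arrays, with no overlap (4.42 ± 0.29, limma adjusted p = 1.79e-08). Tnfsf4, the ligand of OX40, rose from 3.87 ± 0.21 to 9.72 ± 0.34, and Tnfsf11, which encodes RANKL, from 4.29 ± 0.80 to 8.40 ± 1.05 (a change of 4.11, or 2.59 as the mean of its probe sets). Cd80, a ligand of CD28 and CTLA-4, rose from 4.38 ± 0.17 to 8.30 ± 0.41 (3.92, or 2.01 as the mean of its probe sets). Tnfsf8, the ligand of CD30, fell from 7.77 ± 0.24 to 4.45 ± 0.58, and Tnfrsf25, the receptor DR3, from 7.24 ± 0.59 to 4.92 ± 0.14.

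Cytokine receptors split around a median of 0.14: 12 of 26 rose, 9 fell and 5 did not pass. Receptors for interleukin 2 rose, Il2ra from 5.12 ± 0.56 to 9.53 ± 0.27 and Il2rb from 10.79 ± 0.53 to 13.07 ± 0.40, and so did Il1r2, a decoy receptor for interleukin 1, from 4.30 ± 0.19 to 8.89 ± 0.42. Il6ra, among the largest falls above, went from 11.62 ± 0.09 to 5.39 ± 0.10, and Tgfbr2 did not pass (11.39 ± 0.26 against 11.50 ± 0.10).

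The chains of the interferon gamma receptor moved apart. Ifngr2, its signalling chain, read 5.64, 5.39, 5.27 and 4.90 in Tim-3+ against 9.64, 9.70, 9.82, 9.60 and 9.72 in naive arrays. Ifngr1, its binding chain, read 11.31, 11.54, 11.81 and 11.69 against 9.64, 9.50, 9.95, 9.50 and 9.73. Every Tim-3+ array was below every naive array for Ifngr2 and above every one for Ifngr1. The changes were -4.39 ± 0.13 and 1.92 ± 0.17 (limma adjusted p = 6.54e-12 and 5.36e-07). Tim-3- TIL had Ifngr2 at 6.01 ± 0.14 and Ifngr1 at 11.79 ± 0.48, both on the Tim-3+ side of naive.

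Proximal T cell receptor signalling leaned lower. Of 31 genes 13 fell, 7 rose and 11 did not pass, with a median of -0.27. Tespa1, which helps calcium signals, fell from 9.02 ± 0.17 to 5.72 ± 0.22, the adaptor Sh2b3 from 8.79 ± 0.50 to 5.95 ± 0.49, and Pag1, which anchors the inhibitory kinase CSK, from 9.97 ± 0.02 to 7.46 ± 0.68. The adaptor Sh2d2a rose from 9.90 ± 0.13 to 12.34 ± 0.14 and the phosphatase Ubash3b, which restrains receptor signals, from 9.46 ± 0.32 to 10.99 ± 0.03. Ptprc, which encodes CD45, did not pass, at 12.29 ± 0.09 against 12.51 ± 0.08 (limma adjusted p = 0.0532), but it fell under 11 alternatives, by 0.22 with the filter on dim genes and by 1.22 with its most variable probe set.

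Feedback inhibitors of signalling rose. Of 25 genes 17 rose, 4 fell and 4 did not pass. Spry2, an inhibitor of the RAS pathway, read 10.48, 10.30, 9.97 and 9.75 in Tim-3+ against 3.54, 3.59, 4.02, 3.65 and 4.05 in naive arrays, with no overlap (6.36 ± 0.30, limma adjusted p = 5.38e-10). The phosphatases Dusp14 and Dusp4, which switch off MAP kinases, rose by 4.48 ± 0.14 and 4.38 ± 0.15. Against this, Pik3ip1, which restrains PI3 kinase in resting T cells, fell from 11.07 ± 0.10 to 6.92 ± 0.34, and Zfp36l1, which destabilises mRNA, from 11.48 ± 0.12 to 9.65 ± 0.41.

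Receptors known from NK cells rose in 8 of 13 cases, none fell, and 5 did not pass. Klrc1, which encodes the inhibitory receptor NKG2A, read 12.18, 12.22, 12.01 and 11.95 in Tim-3+ against 3.72, 3.76, 4.70, 3.90 and 3.30 in naive arrays, with no overlap (8.21 ± 0.21, limma adjusted p = 2.38e-12). Klre1 rose from 4.52 ± 0.48 to 9.74 ± 0.36 and Klrc2, the activating NKG2C, from 3.29 ± 0.30 to 7.87 ± 0.13. The kinase-like Styk1 rose from 3.57 ± 0.40 to 8.13 ± 0.74 and was at 4.80 ± 0.44 in Tim-3- TIL. Hcst, the adaptor DAP10, did not pass, at 10.04 ± 0.70 against 10.28 ± 0.62 (limma adjusted p = 0.612), but it fell within array set B (-0.40) and with the sets as a block (-0.35). In the NK cell list, Ncr1, a receptor that marks NK cells, was at 3.20 ± 0.11 in Tim-3+ and 3.40 ± 0.35 in naive cells.

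All 47 measured genes of mitosis rose. They passed the threshold, 45 of them at least 2-fold, with a median of 4.04, where 20.1% of all genes rose. Ccnb2, a cyclin of mitosis, read 10.65, 10.27, 10.19 and 10.68 in Tim-3+ against 4.56, 4.20, 4.73, 4.09 and 4.84 in naive arrays. Mki67, whose protein Ki-67 marks dividing cells, read 12.52, 12.34, 12.05 and 12.28 against 7.06, 7.65, 7.11, 6.998 and 7.17. Cdk1, the kinase that starts mitosis, read 10.19, 9.77, 9.41 and 9.49 against 5.75, 6.36, 5.70, 6.03 and 6.06. All were far above the naive arrays, whose Ccnb2 levels lay below 5.71. The changes were 5.96 ± 0.18, 5.10 ± 0.17 and 3.74 ± 0.22 (limma adjusted p = 7.38e-12, 2.28e-11 and 5.53e-09). The kinase Bub1 rose from 2.83 ± 0.32 to 8.67 ± 0.42 and Cep55, of the last step of division, from 4.01 ± 0.40 to 9.72 ± 0.18. The spindle protein Nusap1 rose by 5.78 ± 0.21 and topoisomerase Top2a by 4.74 ± 0.18, or by 3.57 and 2.05 as means of their probe sets. Kif23 had the smallest rise (0.39 ± 0.11), with 0.28 within array set B, where it did not pass, and 0.77 with its most variable probe set. Between the TIL groups, 46 of the 47 genes were higher in the Tim-3+ cells, with a median difference of 1.23.

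**Figure D4:**
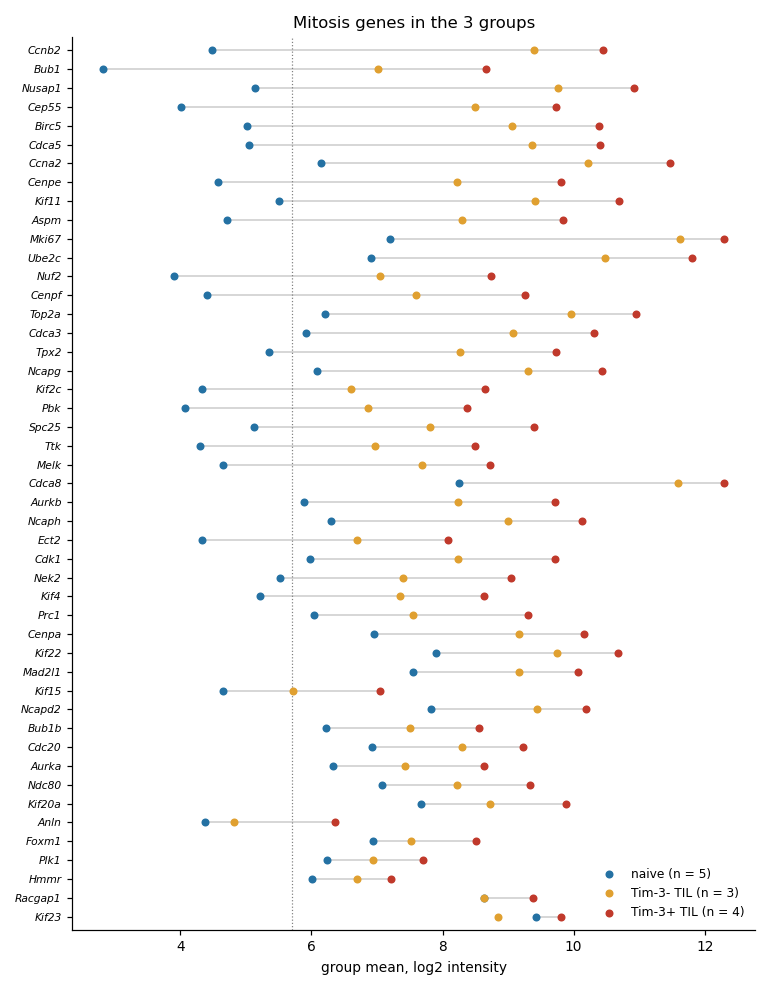
Group mean log2 intensity of the 47 measured mitosis genes in naive cells, Tim-3- TIL and Tim-3+ TIL, ordered by the change from naive to Tim-3+; grey lines join naive and Tim-3+ means and the dotted line is log2 5.71. The Tim-3+ mean is the right-most point in every row, and the gap is widest for Ccnb2, at 5.96, and smallest for Kif23, at 0.39.

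Promoters of mitosis genes are known for a pair of short elements, the CCAAT box, bound by NF-Y, and the cell cycle homology region (CHR), bound by the DREAM and MuvB complexes. Since these genes moved together, their RefSeq start sites (GRCm38.p6) were searched on both strands, in windows from 250 bases before to 50 after the start, for CCAAT and for the CHR letters TTTGAA or TTCGAA. Of the 47 genes 41 matched the promoter table, with 44 windows. A CCAAT stood in 70.5% of their windows against 37.4% of the 18009 windows of all matched tested genes, a CHR core in 81.8% against 15.1%, and both in 65.9% against 5.97%. Of the genes 5 are shown to let the spacing be seen. Each stretch is the 150 bases before the start, 5′ to 3′ on the gene's strand, with CCAAT (or its complement ATTGG) and CHR letters (or TTCAAA) in capitals.
Cdk1 (chr10:69352913-69353062, minus strand): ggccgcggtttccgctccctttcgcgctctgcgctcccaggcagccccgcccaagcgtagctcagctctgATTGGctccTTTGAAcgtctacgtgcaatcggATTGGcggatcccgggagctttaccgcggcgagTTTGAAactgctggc
Cdc20 (chr4:118437344-118437493, minus strand): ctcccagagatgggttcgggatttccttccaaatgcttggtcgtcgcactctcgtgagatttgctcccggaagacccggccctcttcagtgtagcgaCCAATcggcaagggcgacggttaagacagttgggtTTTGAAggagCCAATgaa
Kif11 (chr19:37376232-37376381, plus strand): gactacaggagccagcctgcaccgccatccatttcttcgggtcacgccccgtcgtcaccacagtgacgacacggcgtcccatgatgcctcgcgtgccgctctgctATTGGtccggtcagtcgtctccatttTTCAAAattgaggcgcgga
Top2a (chr11:99024190-99024339, minus strand): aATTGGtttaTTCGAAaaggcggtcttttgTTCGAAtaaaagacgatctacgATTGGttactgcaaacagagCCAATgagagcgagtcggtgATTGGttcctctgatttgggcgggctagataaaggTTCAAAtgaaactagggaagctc
Ube2c (chr2:164769779-164769928, plus strand): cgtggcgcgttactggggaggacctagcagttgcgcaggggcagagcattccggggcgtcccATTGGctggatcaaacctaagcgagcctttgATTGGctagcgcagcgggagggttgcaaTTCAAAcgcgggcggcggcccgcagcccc

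In these stretches the CHR letters nearest the start begin 15 bases before it in Cdk1, 18 in Cdc20, 19 in Kif11, 23 in Top2a and 29 in Ube2c, and a CCAAT lies upstream of them, beginning 48, 53, 45, 58 and 57 bases before the start. The genes themselves rose from 6.92 ± 0.30 to 9.23 ± 0.24 for Cdc20, an activator of the anaphase-promoting complex, from 5.51 ± 0.15 to 10.68 ± 0.32 for the spindle motor Kif11, and from 6.91 ± 0.54 to 11.80 ± 0.40 for the ubiquitin-conjugating enzyme Ube2c. A match of letters is a description and not a shown binding site.

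DNA replication genes rose nearly as widely but by less. Of 39 measured, 36 rose, none fell and 3 did not pass, with a median of 1.90. Cdc6, which loads the replicative helicase, read 9.39, 8.94, 9.47 and 9.67 in Tim-3+ against 3.30, 3.50, 4.08, 2.92 and 3.77 in naive arrays, with no overlap (5.85 ± 0.24, limma adjusted p = 1.11e-10). Rrm2, which makes deoxynucleotides, rose from 6.66 ± 0.12 to 11.66 ± 0.23, the checkpoint gene Clspn from 5.72 ± 0.25 to 9.62 ± 0.22 and thymidine kinase Tk1 from 5.48 ± 0.27 to 9.29 ± 0.32. Of these genes 31 matched the promoter table, with 36 windows, of which 18 held an E2F element (GCGGGAA or GGCGCC on either strand) against 22.7% of all windows, while 13.9% held a CHR core. In the mitosis windows the E2F share was 22.7%. The brightest member that did not pass was Rpa1, of the single-strand binding protein (0.21 ± 0.08, limma adjusted p = 0.0508). It passed with the filter on dim genes, with trend and robust moderation, with array weights, with the array sets as a block and without Tim-3+ replicate 2.

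Control of the G1 and S phases mixed drivers with brakes. Of 28 genes 18 rose, 5 fell and 5 did not pass. E2f8 and E2f7, repressors that close the S phase programme, rose from 4.95 ± 0.42 to 9.64 ± 0.27 and from 3.29 ± 0.76 to 7.51 ± 0.42. The inhibitors Cdkn1a, which encodes p21, and Cdkn2b rose from 5.98 ± 0.25 to 9.07 ± 0.22 and from 4.37 ± 0.27 to 7.38 ± 0.21. Cdkn1a read 9.22, 9.19, 8.74 and 9.15 in Tim-3+ against 5.89, 6.20, 5.99, 6.21 and 5.62 in naive arrays, and so did not overlap. Myc, which drives growth of activated T cells, read 10.21, 10.62, 9.02 and 9.23 against 11.70, 11.63, 11.69, 11.69 and 11.56, lower on every Tim-3+ array and lowest on replicates 3 and 4. Its change was -1.88 ± 0.30 (limma adjusted p = 1.28e-04), -1.25 within array set A and -2.52 within set B. The inhibitor Cdkn2d had a change of -1.39 ± 0.14.

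Glycolysis genes were higher. Of 19 measured, 15 rose, 1 fell and 3 did not pass, with a median of 1.01. The lactate exporter Slc16a3 read 9.22, 9.07, 9.35 and 9.63 in Tim-3+ against 6.09, 6.36, 6.39, 5.97 and 6.05 in naive arrays, and triose phosphate isomerase, Tpi1, read 11.91, 11.65, 11.80 and 11.75 against 8.29, 8.42, 8.77, 8.74 and 9.07. Neither overlapped, and the changes were 3.14 ± 0.15 and 3.12 ± 0.16 (limma adjusted p = 5.56e-10 and 1.48e-09). Hexokinase Hk2 rose by 2.60 ± 0.11, aldolase Aldoc by 2.85 ± 0.15, and the glucose transporters Slc2a1 and Slc2a3 by 1.01 ± 0.15 and 1.35 ± 0.22. Pdk1, which keeps pyruvate out of the mitochondrion, went the other way, from 11.25 ± 0.05 to 9.08 ± 0.14 (-2.17 ± 0.08; -3.97 with its most variable probe set). The lactate transporter Slc16a1 had a change of -0.06 that did not pass, but its most variable probe set rose by 1.11.

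Oxidative phosphorylation genes changed by less than 2-fold each. Of 38 genes 18 rose, 1 fell and 19 did not pass, with a median of 0.30. Cox5a, of complex IV, rose by 0.85 ± 0.14 and Sdhb, of complex II, by 0.74 ± 0.08, while Sdha of the same complex had a change of -0.28 ± 0.08 (-0.68 with its most variable probe set) whose call was lost within each array set (adjusted p = 0.0735 and 0.0805).

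Hypoxia targets rose in 16 of 25 cases, 5 fell and 4 did not pass. The collagen lysyl hydroxylase Plod2 rose from 4.40 ± 0.59 to 8.67 ± 0.25, the mitophagy receptor Bnip3 from 6.88 ± 0.21 to 9.42 ± 0.44 and the lipid droplet protein Hilpda from 7.04 ± 0.10 to 9.37 ± 0.57. Hif1a itself read 11.61, 11.64, 11.96 and 11.86 in Tim-3+ against 10.06, 10.24, 10.37, 10.44 and 10.26 in naive arrays, with no overlap (1.49 ± 0.11, limma adjusted p = 4.42e-08). Ddit4, an inhibitor of mTORC1 that hypoxia induces in many cells, fell from 11.91 ± 0.16 to 10.86 ± 0.20. Pdk1, given above with glycolysis, is also of this list and had its largest fall (-2.17 ± 0.08). Tim-3- TIL had Bnip3 at 7.61 ± 0.39 and Hilpda at 7.51 ± 0.33 (Tim-3+ minus Tim-3- 1.81 ± 0.23 and 1.86 ± 0.24, limma adjusted p = 1.07e-04 and 1.52e-04).

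Genes of cholesterol and fatty acid synthesis leaned higher. Of 26 genes 15 rose, 1 fell and 10 did not pass. The sterol demethylase Cyp51 rose from 8.80 ± 0.21 to 11.03 ± 0.29, squalene epoxidase Sqle from 7.17 ± 0.33 to 8.99 ± 0.09, Hsd17b7 from 7.32 ± 0.28 to 9.05 ± 0.37 and Insig1, a sterol-induced brake of the pathway, from 9.84 ± 0.12 to 11.39 ± 0.14. Elovl6, which lengthens fatty acids, fell from 7.95 ± 0.27 to 6.66 ± 0.41, and Acly, which supplies cytosolic acetyl-CoA, was at 11.47 ± 0.27 against 11.43 ± 0.26 (limma adjusted p = 0.862).

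Stress and folding genes leaned higher. In the integrated stress response and amino acid list 13 of 24 rose and 2 fell. Asparagine synthetase, Asns, read 8.85, 8.41, 8.80 and 8.997 in Tim-3+ against 3.73, 3.92, 3.79, 2.36 and 3.88 in naive arrays, with no overlap (5.23 ± 0.28, limma adjusted p = 2.44e-09), and the serine synthesis enzyme Psat1 rose from 9.66 ± 0.32 to 11.32 ± 0.20. Ddit3, which encodes the stress factor CHOP, had a change of -0.68 ± 0.16, a call lost with the mean of its probe sets (-0.24, adjusted p = 0.278). In the endoplasmic reticulum list 19 of 26 rose and 1 fell. The sensor Atf6 rose from 6.97 ± 0.44 to 9.62 ± 0.02, the chaperone cofactor Sdf2l1 from 7.56 ± 0.12 to 9.53 ± 0.08 and the factor Xbp1 from 7.46 ± 0.38 to 9.11 ± 0.49.

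Proteasome genes rose, ribosomal ones mostly did not pass. In the proteasome 26 of 30 genes rose and none fell, each by less than 2-fold, with a median of 0.47, and Psma1 rose most, from 9.81 ± 0.15 to 10.77 ± 0.15 (0.96 ± 0.11, limma adjusted p = 5.17e-06). Of 24 cytosolic ribosomal protein genes 1 rose, 4 fell and 19 did not pass (median -0.13). Rpl8 fell from 12.77 ± 0.10 to 12.39 ± 0.12. Of 25 ribosome biogenesis genes 2 rose and 8 fell (median -0.19), and the largest change was that of Utp20, from 9.54 ± 0.10 to 8.86 ± 0.20. The share that fell among ribosome biogenesis genes is to be read against the 21.4% of all genes that fell.

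Interferon response genes were lower. Of 32 measured, 21 fell, 2 rose and 9 did not pass, with a median of -0.68. Oasl2, of the antiviral oligoadenylate synthetase family, read 4.85, 4.28, 5.19 and 4.78 in Tim-3+ against 7.80, 8.68, 8.14, 7.83 and 8.15 in naive arrays. Ifit3, which binds viral RNA complexes, read 7.75, 8.18, 8.30 and 8.12 against 9.86, 10.38, 10.38, 10.18 and 10.11. Every Tim-3+ array was below every naive array, with changes of -3.35 ± 0.20 and -2.10 ± 0.22 (limma adjusted p = 5.53e-09 and 2.09e-06). Usp18, a brake of the interferon receptor, fell from 8.03 ± 0.35 to 5.71 ± 0.34 and Oas3 from 9.47 ± 0.22 to 7.50 ± 0.22. In Tim-3- TIL these genes parted: Oas3 was at 9.28 ± 0.10 and Ifit3 at 10.18 ± 0.67, while Oasl2 was at 6.85 ± 0.19 and Usp18 at 5.34 ± 0.18. Tim-3+ minus Tim-3- was -1.78 ± 0.15, -2.09 ± 0.24 and -2.07 ± 0.22 for Oas3, Ifit3 and Oasl2 (limma adjusted p = 2.24e-06, 5.37e-05 and 2.54e-05) and 0.37 ± 0.21 for Usp18 (limma adjusted p = 0.319). Isg20, an exonuclease, was a member that rose (1.24 ± 0.17). Mx1 rose too (0.68 ± 0.24, limma adjusted p = 0.0335), but not within either array set, nor when naive replicate 1 or 4, or replicate 2 or 4 of Tim-3+, was left out (adjusted p between 0.0738 and 0.109).

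Promoters that answer interferon carry pairs of GAAA parted by a pair of bases, to which interferon regulatory factors bind. Of the list 23 genes matched the promoter table, with 29 windows. Such a pair, on either strand, stood in 44.8% of these windows against 3.04% of all 18009 windows. The 3 genes shown all fell. They are given, as the 150 bases before the RefSeq start (GRCm38.p6), 5′ to 3′ on the gene's strand, with the pairs (or their complement) in capitals.
Ifit1 (chr19:34640739-34640888, plus strand): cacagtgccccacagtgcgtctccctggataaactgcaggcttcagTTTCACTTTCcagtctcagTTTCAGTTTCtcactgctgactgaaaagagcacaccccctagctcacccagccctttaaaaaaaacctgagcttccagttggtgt
Oas3 (chr5:120777660-120777809, minus strand): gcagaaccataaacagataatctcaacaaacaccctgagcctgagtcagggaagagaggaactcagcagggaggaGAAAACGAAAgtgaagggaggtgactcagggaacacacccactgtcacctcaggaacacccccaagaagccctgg
Gbp2 (chr3:142620513-142620662, plus strand): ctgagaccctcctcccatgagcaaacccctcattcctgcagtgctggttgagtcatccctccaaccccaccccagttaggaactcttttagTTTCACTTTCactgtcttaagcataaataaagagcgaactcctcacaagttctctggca

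The Ifit1 stretch holds 2 such pairs, and those of Oas3 and Gbp2 hold 1 each. Ifit1 went from 9.90 ± 0.35 to 8.19 ± 0.21 and Gbp2, a GTPase against intracellular microbes, from 10.38 ± 0.21 to 9.22 ± 0.17. The pairs describe letters only.

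Most genes of antigen presentation by MHC class I did not pass. Of 12 genes 1 rose, none fell and 11 did not pass. B2m was at 13.52 ± 0.03 against 13.43 ± 0.07 (limma adjusted p = 0.374). The riser was the peptide transporter Tap1 (0.31 ± 0.09), whose call was lost without Tim-3+ replicate 3 (adjusted p = 0.051), within array set B and with the mean (0.08) or the most variable (-0.13) of its probe sets.

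The GIMAP genes, GTPases that support survival of resting lymphocytes and lie side by side on chromosome 6, mostly fell. Of 8 genes 6 fell, 1 rose and 1 did not pass, with a median of -1.16. Gimap8 read 10.82, 10.97, 10.52 and 10.41 in Tim-3+ against 12.02, 11.98, 12.17, 12.39 and 12.25 in naive arrays, with no overlap (-1.48 ± 0.14, limma adjusted p = 9.63e-07). Gimap9, Gimap5 and Gimap3 changed by -1.38 ± 0.13, -1.38 ± 0.13 and -1.31 ± 0.13. Gimap4, between Gimap9 and Gimap6 in that row, stood at 11.92 ± 0.23 against 12.12 ± 0.05 (limma adjusted p = 0.149), and passed within array set B (-0.38) and with the array sets as a block (-0.23). Gimap7 rose by 0.48 ± 0.16, but its other probe set fell by 1.13, its change was 0.25 within array set B, and leaving out naive replicate 3 or 4, or replicate 1 or 2 of Tim-3+, ended the call (adjusted p between 0.0522 and 0.086).

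Calcium-binding, membrane and cytoskeletal genes rose as 19 of 29, with none lower and 10 not past. Besides S100a4 and S100a6, galectin 3, encoded by Lgals3, read 10.14, 10.64, 10.45 and 10.25 in Tim-3+ against 4.31, 4.89, 4.22, 4.28 and 4.55 in naive arrays, with no overlap (5.92 ± 0.16, limma adjusted p = 4.36e-12). Annexin Anxa2 rose from 6.75 ± 0.23 to 12.41 ± 0.06, by 5.67 or, as the mean of its probe sets, 2.11. The thymosin Tmsb10 was at 13.68 ± 0.05 against 13.78 ± 0.03 and did not pass.

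Metallothioneins, which bind zinc and copper, rose steeply. Mt2 read 11.49, 11.67, 12.07 and 11.997 in Tim-3+ against 6.49, 6.78, 6.90, 6.90 and 6.91 in naive arrays, with no overlap (5.01 ± 0.20, limma adjusted p = 8.43e-11). Mt1 rose by 5.65 ± 0.21 (3.43 as the mean of its probe sets). Tim-3- TIL had them at 8.90 ± 0.57 and 8.07 ± 0.26 (Tim-3+ minus Tim-3- 2.91 ± 0.22 and 2.47 ± 0.24, limma adjusted p = 1.06e-06 and 1.11e-05). Among redox genes Srxn1, which repairs peroxiredoxins, rose from 4.84 ± 0.16 to 8.80 ± 0.48 (by 3.97, or 2.49 as the mean of its probe sets) and Gsto1 from 7.29 ± 0.41 to 10.45 ± 0.12. Of the list of redox and metallothionein genes 10 of 21 rose and 2 fell.

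Death genes changed on both sides. Of 19 measured, 7 rose, 5 fell and 7 did not pass, where 20.1% of all genes rose and 21.4% fell. The list median was -0.01. Casp4, an inflammatory caspase, read 9.31, 9.81, 9.97 and 9.85 in Tim-3+ against 4.84, 4.46, 3.91, 3.98 and 4.46 in naive arrays, with no overlap (5.40 ± 0.18, limma adjusted p = 2.28e-11). Pmaip1, which encodes the killer protein NOXA, rose from 5.49 ± 0.32 to 10.02 ± 0.16 and Casp1 from 5.18 ± 0.60 to 9.64 ± 0.18. The protective Bcl2 and Cflar fell, with changes of -1.0 ± 0.12 for Bcl2 (-2.41 with its most variable probe set) and -1.90 ± 0.09 for Cflar (-1.06 as the mean of its probe sets).

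Genes that cell dissociation and handling are known to induce moved with the groups, and only the tumours are described as enzyme digested. Of 25 such genes 14 rose, 6 fell and 5 did not pass, with a median of 0.43. The heat shock gene Hspa1a read 10.87, 10.45, 9.89 and 9.81 in Tim-3+ against 2.51, 3.005, 2.998, 2.67 and 3.09 in naive arrays. Fosb read 9.54, 9.32, 9.93 and 9.88 against 3.40, 3.27, 4.47, 6.08 and 5.29. Both were higher on every Tim-3+ array, with naive Fosb spread over a wide range. The changes were 7.40 ± 0.21 and 5.17 ± 0.46 (limma adjusted p = 5.50e-12 and 4.62e-07). Hspa1b, a near copy of Hspa1a, rose by 6.70 ± 0.47. The brightest members of the list, Hspa8 and Dnaja1, did not pass (limma adjusted p = 0.556 and 0.999). Hspa8 was at 13.15 ± 0.05 in Tim-3+ against 13.09 ± 0.05 in naive cells, and Dnaja1 at 12.58 ± 0.14 against 12.58 ± 0.07. Jun fell from 10.33 ± 0.52 to 9.42 ± 0.22, by 0.91 (0.39 within array set A, where it did not pass, and 1.73 with its most variable probe set). Fos was at 9.07 ± 0.51 against 8.15 ± 1.23 and passed within array set A alone of the alternatives (2.57). This list shares Egr1, Egr2, Dusp1, Atf3 and other members with the lists above, and its part in their changes was not tested.

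The share of dim markers differed between the lists of other cells. Below 5.71 in both groups lay 9 of 11 genes of neutrophils but 2 of 11 of CD4 and regulatory T cells. In the list of melanoma cells 8 of 16 genes rose, 2 fell and 6 lay below 5.71 in both groups, with a log2 summed level of 9.87 to 11.02 in Tim-3+ against 10.15 to 10.40 in naive arrays. Tyrp1, a pigment enzyme of melanocytes, read 8.29, 4.67, 7.55 and 6.55 in Tim-3+ against 2.94, 3.09, 3.38, 3.09 and 3.03 in naive arrays, and Dct, another, read 8.28, 4.92, 7.85 and 6.97 against 3.94, 4.08, 4.48, 3.59 and 4.31. Replicate 1 was highest and replicate 2 lowest among Tim-3+ arrays for both. The Tyrp1 and Dct calls (3.66 ± 0.57 and 2.92 ± 0.53) were lost within array set A (adjusted p = 0.054 and 0.1). The 2 brightest members were higher in naive cells. Pmel, another gene of pigment cells, fell from 8.05 ± 0.30 to 6.81 ± 0.49, and Trpm1 from 9.03 ± 0.42 to 7.69 ± 0.16. Kit, which T cells of some states also express, rose from 3.42 ± 0.39 to 7.49 ± 0.74. The summed levels of the groups overlap, but they hold Pmel and Trpm1, so the overlap does not measure melanoma RNA. The part of melanoma RNA in other results was not tested.

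Some markers of B cells were higher in naive cells. Of 15 genes 5 fell in Tim-3+ TIL, where 21.4% of all genes fell, none rose and 10 did not pass. The list median was -0.27, and 11 genes lay below 5.71 in both groups. The summed level was 11.64 to 12.03 in naive against 9.27 to 9.48 in Tim-3+ arrays. Ighm, the immunoglobulin mu chain, went from 11.44 ± 0.17 to 7.99 ± 0.26 (-3.45, or -0.82 as the mean of its probe sets) and the receptor chain Cd79b from 8.89 ± 0.15 to 5.59 ± 0.15. Ms4a1, which encodes CD20, was near the floor in both groups, at 3.70 ± 0.59 in naive and 3.27 ± 0.08 in Tim-3+ cells, though its most variable probe set fell (-0.96, limma adjusted p = 0.0479). H2-Ob, among the largest falls above, is also a gene of B cells, and the part of B cell RNA in that fall was not tested.

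In the list of monocytes and macrophages 4 of 23 genes rose and 3 fell, so that 30.4% passed against 41.5% of all genes. The summed level, which holds Ctss, was 11.83 to 12.14 in Tim-3+ against 12.26 to 12.36 in naive arrays. Ctss, the brightest member, fell from 12.08 ± 0.03 to 11.61 ± 0.17 (-0.46 ± 0.10, limma adjusted p = 0.00119). The risers were the oxidase subunit Cybb, from 3.84 ± 0.39 to 6.20 ± 0.27, the chemokine Ccl6, from 4.82 ± 0.35 to 6.71 ± 0.55 (a change of 1.90, and 1.23 within array set A), the endotoxin receptor Cd14, from 4.12 ± 0.33 to 5.21 ± 0.33, and Cd68, from 6.83 ± 0.41 to 7.46 ± 0.28. The Cd68 call was lost within each array set and without Tim-3+ replicate 2 (adjusted p = 0.0576). Among the others C1qa was at 3.72 ± 0.18 in Tim-3+ and 3.80 ± 0.32 in naive cells and Lyz2 at 5.61 ± 0.95 and 5.28 ± 0.36. Of dendritic cell genes 4 of 15 rose and 3 fell, so that 46.7% passed against 41.5% of all genes. The summed level, which holds Ccr9, was 10.40 to 10.75 in Tim-3+ against 11.84 to 11.91 in naive arrays. Cd74, the invariant chain of MHC class II, rose from 7.17 ± 0.52 to 8.36 ± 0.63, by 1.18, or by 0.45 within array set A, where it did not pass, and 1.85 within set B. Its call was also lost without Tim-3+ replicate 3 or 4 (adjusted p = 0.0569 and 0.0574).

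In the list of neutrophils 1 of 11 rose, Ltf, from 4.75 ± 0.20 to 7.92 ± 0.54, with S100a9 at 5.59 ± 0.09 against 6.07 ± 0.68 (-0.97 within array set A and -0.71 without naive replicate 3, where it passed). The summed level was 8.74 to 9.41 in Tim-3+ against 8.12 to 8.61 in naive arrays. Erythroid cells and platelets gave 0 changed genes of 8 by limma, and 1, the haemoglobin gene Hba-a1, at an unadjusted p under 0.05 (-0.24). Hba-a1 did pass with arrays centred on their medians, with the array sets as a block, within array set B (-0.37) and without Tim-3+ replicate 1 or 2. Fibroblasts and endothelium gave 1 higher and 4 lower of 18, with Col3a1 at 4.57 ± 0.44 against 4.54 ± 0.30, and keratinocytes 2 higher and 1 lower of 12. That is 27.8% and 25% past, against 41.5% of all genes. The summed keratinocyte level was 10.58 to 11.02 in Tim-3+ against 9.24 to 9.41 in naive arrays, with no overlap. The keratinocyte risers were Perp and Cdh1. Perp, a membrane protein that p53 induces, rose from 3.12 ± 0.38 to 10.07 ± 0.29. Cdh1, which encodes the E-cadherin of epithelia, rose from 4.06 ± 0.35 to 7.54 ± 0.59. The lower gene was the keratin Krt10, from 7.40 ± 0.19 to 6.23 ± 0.35 (-1.17 ± 0.20, limma adjusted p = 2.67e-04). The defining keratin Krt14 was at 4.97 ± 0.16 in Tim-3+ and 4.89 ± 0.17 in naive cells. The part of RNA from these lineages in other results was not tested.

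Genes of CD4 and regulatory T cells rose in 6 of 11 cases and 2 fell. The risers include Il2ra, Ctla4 and Ikzf2, which activated CD8 cells also express, and Ikzf4, from 8.23 ± 0.21 to 10.30 ± 0.24. Izumo1r, among the brightest of the list, fell from 9.82 ± 0.31 to 8.07 ± 0.32 (-1.75 ± 0.18, limma adjusted p = 1.62e-06). Cd4 was at 7.50 ± 0.11 against 6.51 ± 0.20 (0.99 ± 0.12, limma adjusted p = 8.53e-06). Foxp3, the factor of regulatory T cells, read 6.71, 7.09, 6.95 and 6.97 in Tim-3+ against 7.03, 6.97, 7.39, 6.94 and 7.11 in naive arrays, which overlap. In the list of NK cells the 3 risers of 7 were Cd244a, which was sorted on, Klre1, and Fcer1g, an adaptor of Fc receptors, from 5.45 ± 0.39 to 8.59 ± 0.29.

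**Figure D5:**
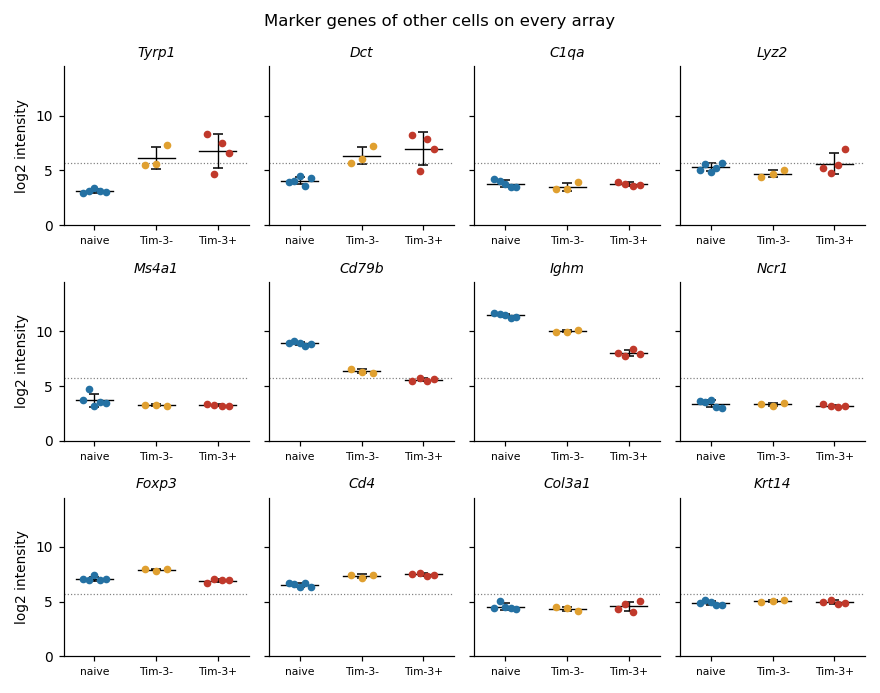
Log2 intensity of 12 marker genes of other cells on every array of naive cells (n = 5), Tim-3- TIL (n = 3) and Tim-3+ TIL (n = 4); points are arrays, horizontal lines are group means, bars are SD and the dotted line is log2 5.71. Tyrp1 and Dct are above naive on TIL arrays and vary between them, Cd79b and Ighm are highest in naive cells, and C1qa, Ms4a1, Ncr1, Col3a1 and Krt14 are below the dotted line in every group.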

How the data were processed

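RNA of the 12 samples was hybridised to Affymetrix mouse arrays. The deposited table holds 1 intensity per probe set and array on a linear scale, made by the authors with RMA in affy, per the submitters' processing notes, with versions and parameters not given in the sources used here. RMA corrects background, normalizes by quantiles and summarises probes, so whole-array shifts are removed and low values are compressed. Of 45101 probe sets 34945 name 1 gene, 932 name several, 9160 name none and 64 are controls. Intensities were put on the log2 scale here, and each of 18193 genes took its brightest such probe set (9010 genes have more than 1). Arrays give no read depth, and the number of arrays limits the precision.

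Group means of all 12 arrays were fitted with limma 3.58.1 (R 4.3.3), with default moderation, and p-values (two-sided) were adjusted over all genes by Benjamini-Hochberg, with a threshold of 0.05. The value after ± is the SD for a level and the SE for a change. The members and the 44 gene lists (968 measured places) were chosen from general knowledge with earlier results of these data known, so lists have counts and medians and no test. The fit was tested on simulated data. Arrays of the same replicate number deviated together from their group means (r = 0.32, 0.19, 0.21 and 0.13 for numbers 1 to 4). Arrays of other numbers in the same array set did so by up to 0.30. Tim-3+ replicate 3 did so more with naive replicate 5 (0.29) than with naive replicate 3. The check therefore cannot tell a pairing from the array sets. A pairing would rest on the numbers in the titles alone, and the replicate block was used only as an alternative. The alternatives were other probe set choices, another normalization or centring, a filter on dim genes, other moderation, array weights, the 9 arrays alone, blocks, array sets, a 2-fold minimum and leaving out each array.

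Named genes were drawn from the 259 that a rule picked. The rule took the sort markers and the 12 largest rises and falls without overlap (antigen receptor segments left out). For lists of identity, handling and other cells it took the 2 brightest and the 2 with the largest changes. For the other lists it took up to 4 with the largest changes, up to 2 against the list's sign and the brightest not past the threshold. A fixed set of known genes was added. Not every gene the rule picked is named in the text, and those left out include genes that passed and genes that did not. Named outside that rule, with values seen, were C1qa, Cd14, Cd4, Cdc20, Cdk1, Col3a1, Dct, Dusp1, Egr1, Fos, Fosb, Foxp3, Gbp2, Gimap6, Gzmn, Hba-a1, Ifit1, Ifngr1, Il2, Itgb7, Jun, Kif11, Kif23, Krt14, Lyz2, Ms4a1, Myb, Ncr1, Nr4a1, Nr4a3 and Ube2c. Promoter sequences come from RefSeq on GRCm38.p6; chromosome 18 was not used, and 14368 of the tested genes matched the table.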

Additional observations from a re-analysis of the deposited data

Results flagged for a closer look

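Within a group, 1 array stood far from the rest for 22 of 490 gene and group pairs, 9 in Tim-3+ and 13 in naive arrays, by Dixon's critical value for 4 or 5 samples. Chance flags about 1 in 20 such groups. Tim-3+ replicate 1 was the highest and stood apart for Egr1 at 11.18 (nearest array 11.04). Tim-3+ replicate 2 was the highest and stood apart for Ccl5 at 13.37 (nearest array 13.24), Ctla4 at 12.51 (nearest array 12.19), Havcr2 at 11.87 (nearest array 11.61) and S100a4 at 13.18 (nearest array 13.07). Tim-3+ replicate 2 was the lowest and stood apart for Slc16a1 at 9.93 (nearest array 10.16). Tim-3+ replicate 3 was the highest and stood apart for Atf3 at 7.54 (nearest array 6.85). Tim-3+ replicate 3 was the lowest and stood apart for Cdkn1a at 8.74 (nearest array 9.15). Tim-3+ replicate 4 was the highest and stood apart for Il6ra at 5.55 (nearest array 5.34).

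Naive replicate 1 was the lowest and stood apart for Ccr8 at 2.77 (nearest array 3.23), Egr1 at 10.33 (nearest array 10.49) and Ltf at 4.40 (nearest array 4.76). Naive replicate 2 was the highest and stood apart for Col3a1 at 5.06 (nearest array 4.49) and Mki67 at 7.65 (nearest array 7.17). Naive replicate 3 was the highest and stood apart for Batf at 9.66 (nearest array 9.50) and Pdcd1 at 5.68 (nearest array 5.07). Naive replicate 3 was the lowest and stood apart for Cd8a at 12.76 (nearest array 12.82) and Sdha at 12.11 (nearest array 12.20). Naive replicate 4 was the highest and stood apart for Btla at 11.05 (nearest array 10.85). Naive replicate 4 was the lowest and stood apart for Asns at 2.36 (nearest array 3.73), Ccl5 at 7.42 (nearest array 8.23) and Cep55 at 3.31 (nearest array 4.06). The gaps are small beside the change between groups for most of these genes, and the reason for each was not tested.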

How the results depend on the processing

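The count of 7554 genes past the threshold fell to 1447 (920 higher, 527 lower) when a change of at least 2-fold was required, which by construction calls fewer genes. It stayed within 1.5 times under the other alternatives, between 6210 within array set A and 8717 with the array sets as a block. Since the sets were taken from these same values, blocking on them removes spread by construction. Calls gained with the sets as a block are therefore no independent support. With a replicate block the count was 7681 (3764 higher, 3917 lower). Among named genes the replicate block changed the calls of Gzmm (-0.26) and Myb (0.60), neither past the threshold in the main fit. Leaving out 1 array gave between 6858 and 7852 genes, with 3378 to 3806 higher and 3460 to 4046 lower. Centring each array on its median gave 3320 higher and 4941 lower. Of 215 named genes past the threshold 202 kept their call under every alternative but the 2-fold minimum. Trpm1, Hspa8, Dnaja1, Izumo1r, Ctss and Krt10 are not among these genes, nor in the search for outlying arrays above. Their values under the alternatives are not given. The mean of a gene's probe sets turned the direction of Prf1 (1.12), Slc16a1 (0.52) and Gimap7 (-0.32), and the most variable probe set turned Prf1 (2.74), Slc16a1 (1.11), Gimap7 (-1.13), Tap1 (-0.13) and the median of the cytokine receptor list (-0.13). Which transcripts these probe sets read was not tested. Of 1056 list medians under alternatives 992 moved by less than the spread between arrays. Below log2 5.71 signal and background cannot be separated here.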

Other observations

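Several genes had their highest or lowest level in Tim-3- TIL, outside both groups compared above. They were chosen after their values were seen. Myb, a factor of stem-like T cells, was at 11.07 ± 0.15 in Tim-3- TIL against 8.60 ± 0.51 in naive cells and 9.11 ± 0.74 in Tim-3+ TIL (Tim-3- minus naive 2.47 ± 0.34, limma adjusted p = 5.04e-05; Tim-3+ minus Tim-3- -1.96 ± 0.35, limma adjusted p = 0.00185). Between Tim-3+ TIL and naive cells Myb did not pass (0.51 ± 0.31, limma adjusted p = 0.213), but it did under 6 alternatives, from 0.43 within array set A to 1.09 with its most variable probe set. Cd83, a surface protein of activated lymphocytes, was at 10.41 ± 0.68 against 5.87 ± 0.32 and 7.55 ± 0.22 (Tim-3- minus naive 4.54 ± 0.25, limma adjusted p = 7.78e-09; Tim-3+ minus Tim-3- -2.86 ± 0.26, limma adjusted p = 6.25e-06). For Il2 the difference from naive was 2.26 ± 0.27 (limma adjusted p = 1.26e-05) and Tim-3+ minus Tim-3- was -2.62 ± 0.28 (limma adjusted p = 2.22e-05).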
